A study of Arabidopsis thaliana with 12 samples.

Results

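Arabinogalactan proteins (AGPs) and fasciclin-like arabinogalactan proteins were followed in root tips of Arabidopsis thaliana on control medium and on salt. The genes are those whose description in the authors' deposited tables contains the word arabinogalactan and not extensin, which gave 58 of the 33557 listed genes. By keyword they form 26 fasciclin-like proteins, 13 arabinogalactan peptides (AG peptides) and 19 other AGPs. FLA7 and FLA9 fall outside these 58 because the tables spell their descriptions with a doubled o, and they are described separately. The rule used no measured value.

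RNA was sequenced from tips of about 1 cm cut from roots of seedlings that had spent 8 days at 22 °C under a cycle of 16 h light and 8 h dark. They then spent 24 h on diluted Murashige and Skoog medium with NaCl (NaCl) or without it (MS). The 12 samples form 4 groups of 3, which are the line called 6-6 on NaCl, 6-6 on MS, wild type (WT) on NaCl and WT on MS. The NaCl concentration, the construction of line 6-6, the number of lines or clones it stands for and whether plants were pooled are left unstated in the sources used here. The series title names ITPK4, an inositol phosphate kinase gene, which in the authors' deposited table stood at 2.95 FPKM in 6-6 MS and 24.9 FPKM in WT MS.

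AGPs are secreted proteins of the wall and the plasma membrane, rich in proline that is hydroxylated and then loaded with large branched glycans of galactose and arabinose. Many are held at the membrane by a lipid anchor, and their glucuronic acid groups bind calcium. The fasciclin-like members also carry fasciclin domains, which in animals act in cell adhesion, and the AG peptides are AGPs reduced to a very short mature chain. One fasciclin-like gene, SOS5 (FLA4), takes its name from mutants whose root tips swell and stop elongating on salt.

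Each deposited table holds 1 pair of groups, with 1 value per gene and group in FPKM (fragments scaled by transcript length and library size) and the authors' q-value, a p-value adjusted over all genes tested in that table. A gene is called here when its q-value is below 0.05, and only a called gene is said to have risen or fallen, or to be higher or lower. The authors' smallest p-value is 5e-05 in each comparison, and all genes at it share 1 lowest q-value. That q-value is 0.000441 for salt in 6-6 and 0.000482 in WT, and between lines 0.00186 on NaCl and 0.00396 on MS. It does not rank the genes that share it. Where counts at an unadjusted p below 0.05 are given, the share of all tested genes at that threshold was not computed. The log2 ratios and folds were computed from the 2 group values. The samples of a group were already combined, so neither a value per sample nor an error can be given, and sequencing depth is unknown. Nothing in the labels tells if the 3 samples of a group were separate cultures, and the q-values may then reflect technical spread only.

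The short coding sequences of 6 AG peptides show how alike members with different salt calls are, and they are given from RefSeq TAIR10.1 with the proline codons in capitals, 5′ to 3′ on the coding strand and with introns removed. AGP13 and AGP14 were identical at 77.0% of aligned bases, AGP22 and AGP41 at 69.6%, and AGP16 and AGP20 at 84.4%. The longest run of identical bases was 19 for AGP13 and AGP14, 12 for AGP22 and AGP41 and 26 for AGP16 and AGP20. The values of a pair are uncertain where a read could belong to either gene.
AGP13 (chr4:13317235-13317414, minus strand): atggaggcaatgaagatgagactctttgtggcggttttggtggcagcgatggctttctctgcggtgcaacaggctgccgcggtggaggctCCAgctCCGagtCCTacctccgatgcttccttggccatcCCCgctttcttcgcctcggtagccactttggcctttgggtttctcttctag
AGP14 (chr5:22893243-22893425, plus strand): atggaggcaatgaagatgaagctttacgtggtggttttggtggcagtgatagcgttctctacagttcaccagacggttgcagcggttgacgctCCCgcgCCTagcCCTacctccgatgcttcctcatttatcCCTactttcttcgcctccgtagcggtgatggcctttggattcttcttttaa
AGP22 (chr5:21603715-21604007, plus strand): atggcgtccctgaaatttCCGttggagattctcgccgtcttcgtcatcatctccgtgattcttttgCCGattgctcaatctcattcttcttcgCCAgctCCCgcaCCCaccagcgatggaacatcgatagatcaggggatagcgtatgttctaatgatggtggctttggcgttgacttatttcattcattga
AGP41 (chr5:8152097-8152656, plus strand): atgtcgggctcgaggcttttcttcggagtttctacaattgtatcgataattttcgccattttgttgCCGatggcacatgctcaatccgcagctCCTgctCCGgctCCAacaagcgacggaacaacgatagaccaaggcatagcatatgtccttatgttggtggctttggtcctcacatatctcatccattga
AGP16 (chr2:19018730-19019108, minus strand): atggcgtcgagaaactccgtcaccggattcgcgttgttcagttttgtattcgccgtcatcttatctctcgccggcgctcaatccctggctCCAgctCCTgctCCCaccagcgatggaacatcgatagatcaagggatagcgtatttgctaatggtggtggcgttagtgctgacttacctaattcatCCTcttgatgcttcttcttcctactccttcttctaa
AGP20 (chr3:22810283-22810629, minus strand): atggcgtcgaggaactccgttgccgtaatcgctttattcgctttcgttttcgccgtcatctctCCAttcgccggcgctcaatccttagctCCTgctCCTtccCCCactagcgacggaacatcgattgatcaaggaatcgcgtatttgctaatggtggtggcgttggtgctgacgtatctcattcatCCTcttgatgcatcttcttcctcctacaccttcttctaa

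In each of the 6 sequences 3 of the capitalised codons stand in 1 short stretch near the middle, where proline alternates with alanine or serine. AGP13 and AGP14 have 4 proline codons each, AGP22 has 5 and AGP41 has 4, and AGP16 has 4 and AGP20 has 5. AGP13 and AGP14 are coded in 1 exon, and the other 4 in 2 exons. Over whole classes, the AG peptides had 58 to 74 codons (median 61) and the other AGPs 116 to 359 (median 136), while the fasciclin-like genes had 125 to 489 (median 273). Proline took a median of 21.4% of the codons of the other AGPs, against 6.56% in the AG peptides and 6.61% in the fasciclin-like genes.

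AG peptides and classical AGPs were among the most abundant transcripts of these root tips, and the fasciclin-like genes were lower. The sum over all 58 genes was 12608 FPKM in 6-6 NaCl, 14578 FPKM in 6-6 MS, 13115 FPKM in WT NaCl and 14678 FPKM in WT MS, as the authors' deposited tables give the group values. That is 1.47% of the summed FPKM of all genes in 6-6 NaCl, 1.67% in 6-6 MS, 1.43% in WT NaCl and 1.62% in WT MS. AG peptides made up 6761.5 FPKM in 6-6 MS and 8084 FPKM in WT MS, and fasciclin-like genes 1286 FPKM in 6-6 MS and 1244 FPKM in WT MS. With FLA7 and FLA9 counted, the FLA family of 21 numbered genes summed to 2330.0 FPKM in 6-6 MS and 2279 FPKM in WT MS, from the authors' deposited tables. AGP22 ranked 8 among the genes of WT MS, AGP14 ranked 21 and AGP24 ranked 22. These shares and ranks leave out the genes that the authors' deposited tables flag for too much data, 1 or 2 per table.

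AGP24, an AG peptide, had the highest mean of the 58, with 1628 FPKM in 6-6 NaCl, 1358 FPKM in 6-6 MS, 1767 FPKM in WT NaCl and 1464 FPKM in WT MS in the authors' deposited tables. AGP14 followed with 1259.6 FPKM in 6-6 NaCl, 1324 FPKM in 6-6 MS, 1641 FPKM in WT NaCl and 1466 FPKM in WT MS. The classical AGP2 stood at 1338 FPKM in 6-6 NaCl, 1460.2 FPKM in 6-6 MS, 1175 FPKM in WT NaCl and 1355 FPKM in WT MS. AGP2 was tested in all 4 comparisons and called in none. With AGP9, AGP22 and AGP4, these are the 6 genes that reached 1000 FPKM in some group.

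At the other end, 11 of the 58 stayed below 1 FPKM in every group of the authors' deposited tables, and AT1G30800 and AGP23 are listed at 0 in all 4. The pollen genes AGP11, AGP40, FLA3 and FLA14 are among the 11, and AGP6, also known from pollen, had 1.03 FPKM in 6-6 NaCl, 0.601 FPKM in 6-6 MS, 1.01 FPKM in WT NaCl and 0.395 FPKM in WT MS. Of the 58, 45 were tested by the authors in all 4 comparisons, 3 more in some, and 10 in none. A gene can pass a filter on low values through the 1 group where it is high, so counts over tested genes do not describe all 58. AT1G30800, FLA3, FLA16 and FLA11 share their locus with another gene in the files, and their values are uncertain.

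**Figure D1:**
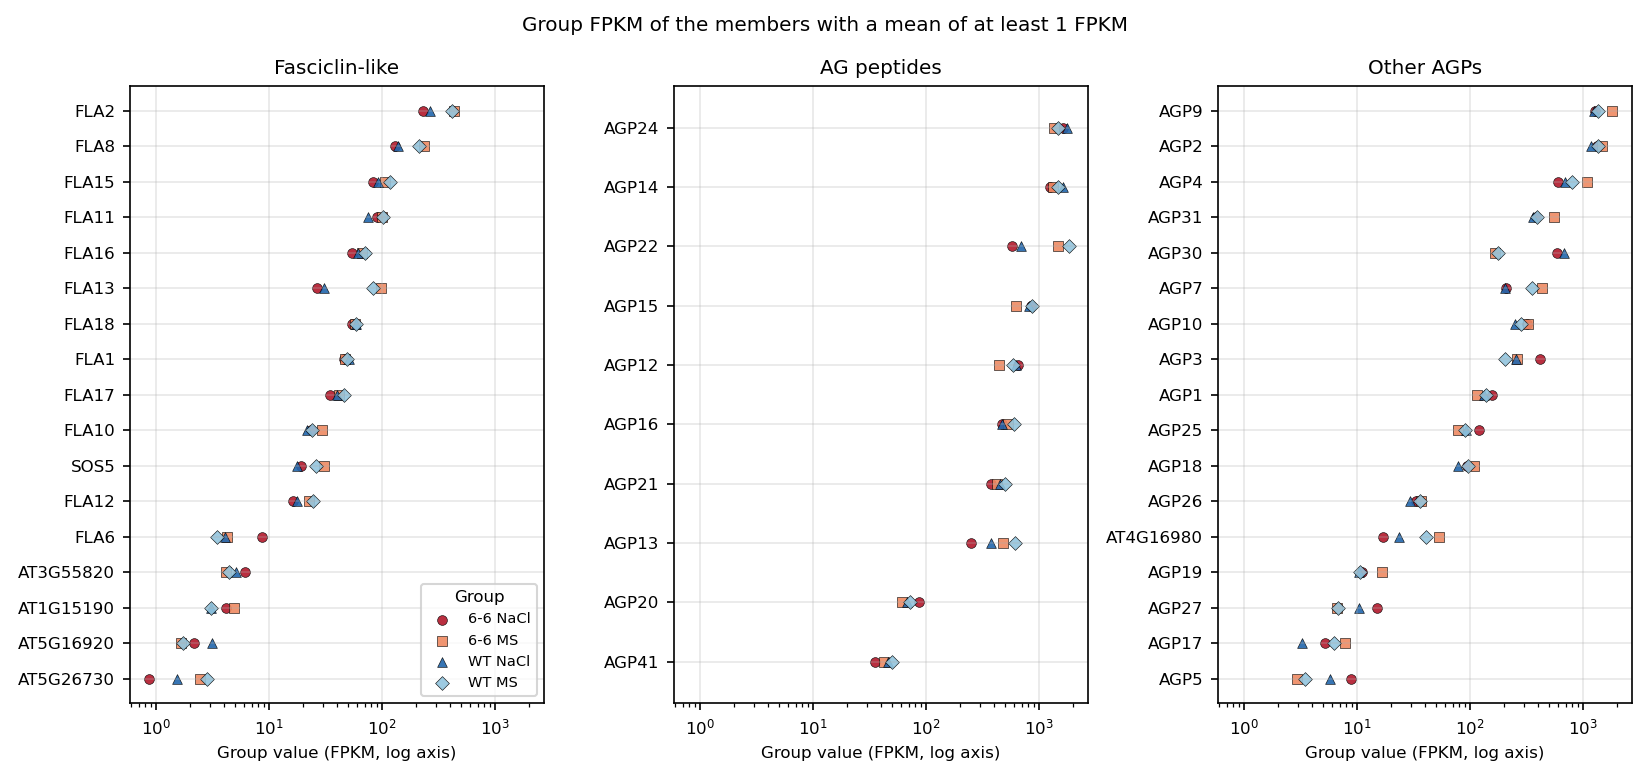
Group FPKM from the authors' deposited tables on a log axis for the 44 genes with a mean of at least 1 FPKM, in 3 panels for fasciclin-like genes, AG peptides and other AGPs; each symbol is 1 of the 4 groups and each gene is a row ordered by its mean. AG peptides and other AGPs reach above 1000 FPKM, the plotted fasciclin-like genes, without FLA9, reach 434 FPKM at most, and AGP30, AGP22 and FLA13 show the 2 NaCl symbols apart from the 2 MS symbols.

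How salt changed these genes in wild-type root tips is answered by WT NaCl against WT MS. Of 47 tested genes 19 were called, which is 40.4%, against 21.8% of all 19798 tested genes. Here 5 rose and 14 fell, where 11.3% of all tested genes rose and 10.5% fell. The median log2 ratio was -0.11 over the tested members and 0.01 over all tested genes. Among genes with a mean of at least 10 FPKM, a level chosen after the data were seen, 15 of 36 members were called and 23.5% of all genes. Shares called also vary with gene length, and among genes from 600 to 1200 bases, where most tested members lie, 11 of 24 members were called and 33.6% of all genes. Up to 600 bases the shares were 2 of 9 members and 22.7% of all genes, and from 1200 to 2400 bases 6 of 10 members and 25.7%. Above 2400 bases they were 0 of 2 members and 19.2% of all genes, and 0 of 2 members in each later comparison. Genes that share a locus with another were left out of the length groups, here and below. Since each sample is a cut of root tissue, fewer cells of a type and less RNA per cell cannot be told apart in this or any later comparison.

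AGP30, an AGP of roots known for its part in seed germination and root regeneration, gave the strongest rise among well-expressed members. In the authors' deposited table it had 682 FPKM in WT NaCl and 176 FPKM in WT MS, a fold of 3.87 and a log2 ratio of 1.95 with a q-value of 0.000482. FLA5, whose function is not well known, had 2.06 FPKM in WT NaCl and 0.239 FPKM in WT MS, a log2 ratio of 3.11 on a low level (q-value 0.00839 in the authors' deposited table). AGP3, a classical AGP, had 256 FPKM in WT NaCl and 206 FPKM in WT MS (log2 ratio 0.32). The fasciclin-like AT5G16920 (0.86) and the AG peptide AGP24 (0.27) also rose. AT5G16920 was low, with 3.15 FPKM in WT NaCl and 1.73 FPKM in WT MS.

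The AG peptide AGP22, whose coding sequence is printed above beside that of AGP41, lost the most transcript in absolute terms. It stood at 699 FPKM in WT NaCl and 1849 FPKM in WT MS in the authors' deposited table, 2.64 times lower on NaCl with a q-value of 0.000482. AGP41 had 46.4 FPKM in WT NaCl and 49.7 FPKM in WT MS and was not called. AGP13 fell to 379 FPKM in WT NaCl, against 615 FPKM in WT MS, with a log2 ratio of -0.70. Its close relative AGP14 (0.16) was not called, so in each of these 2 pairs 1 gene was called and 1 was not. AGP16 fell slightly (-0.37) and AGP20 was not called (-0.07).

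Among fasciclin-like genes, 7 fell and 2 rose of 18 tested, where 10.5% of all tested genes fell and 11.3% rose. FLA13 fell furthest, with 30.8 FPKM in WT NaCl and 83.2 FPKM in WT MS in the authors' deposited table, a log2 ratio of -1.43 and a q-value of 0.000482. FLA2 had 264 FPKM in WT NaCl and 416 FPKM in WT MS, a log2 ratio of -0.66, and was the most abundant of the 26 fasciclin-like genes, below FLA9, which the rule leaves out. FLA8 followed with -0.61. SOS5, the salt-sensitivity gene, fell to 17.5 FPKM in WT NaCl, against 25.9 FPKM in WT MS, a log2 ratio of -0.56 (q-value 0.000482 in the authors' deposited table). The others that fell were AT5G26730 (-0.86), FLA12 (-0.48), a gene of secondary walls, and FLA15 (-0.35). AT5G26730 was low, with 1.54 FPKM in WT NaCl and 2.79 FPKM in WT MS.

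Of the 18 tested other AGPs, 2 rose and 4 fell in WT. That is 33.3%, against 21.8% of all tested genes and 33.6% of all genes from 600 to 1200 bases. AGP7, a classical AGP, had 205 FPKM in WT NaCl and 353 FPKM in WT MS in the authors' deposited table, a log2 ratio of -0.78. AT4G16980, which the files describe as an AGP family member, had 23.4 FPKM in WT NaCl and 40.7 FPKM in WT MS (log2 ratio -0.79). Of the 3 lysine-rich AGPs, AGP17 (-0.93), known from the binding of Agrobacterium to roots, and AGP18 (-0.29), known from megaspore development, also fell, and AGP19 (-0.04) was not called. With the authors' test statistic read as a normal deviate, 9 members were called and 8.44% of all genes. The calls of AGP17, AGP16, SOS5, FLA15, AGP18, AGP3, AT5G16920, AT5G26730, AGP24 and FLA12 in WT were then lost.

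The same question was put to line 6-6 with 6-6 NaCl and 6-6 MS, samples that the WT comparison does not use. Of 48 tested genes 29 were called (60.4%), against 24.1% of all 19705 tested genes. Here 12 rose, where the share of all tested genes that rose was 13.7%, and 17 fell, where that share was 10.4%. The median log2 ratio was -0.16 over the tested members and 0.03 over all tested genes. Of members with a mean of at least 10 FPKM, 23 of 37 were called, against 24.9% of all such genes. By gene length, 4 of 9 members were called up to 600 bases (28.1% of all genes), 16 of 25 from 600 to 1200 bases (37.4%) and 9 of 10 from 1200 to 2400 bases (28.4%).

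AGP30, AGP22 and FLA13, the well-expressed genes that moved furthest in WT, were called in 6-6 as well. AGP30 had 586 FPKM in 6-6 NaCl and 166 FPKM in 6-6 MS in the authors' deposited table, a fold of 3.53 and a log2 ratio of 1.82 with a q-value of 0.000441. AGP22 fell to 578 FPKM in 6-6 NaCl, against 1476 FPKM in 6-6 MS (log2 ratio -1.35), and FLA13 had 26.5 FPKM in 6-6 NaCl and 98.1 FPKM in 6-6 MS (-1.89). AT4G16980 had 17.1 FPKM in 6-6 NaCl and 53.4 FPKM in 6-6 MS in the authors' deposited table, a log2 ratio of -1.64. AT5G26730 fell at a low level, with 0.860 FPKM in 6-6 NaCl and 2.47 FPKM in 6-6 MS (-1.52).

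Salt also moved genes in 6-6 that were not called in WT. AGP5 had 8.76 FPKM in 6-6 NaCl and 2.93 FPKM in 6-6 MS in the authors' deposited table, a log2 ratio of 1.58 with a q-value of 0.000441, against an uncalled 0.73 in WT. AGP27 had 14.9 FPKM in 6-6 NaCl and 6.58 FPKM in 6-6 MS (log2 ratio 1.18), and the fasciclin-like FLA6 had 8.61 FPKM in 6-6 NaCl and 4.23 FPKM in 6-6 MS (1.02). AGP4, also called JAGGER for its part in blocking extra pollen tubes, fell to 605 FPKM in 6-6 NaCl, against 1089 FPKM in 6-6 MS, a log2 ratio of -0.85. AGP9 had 1273 FPKM in 6-6 NaCl and 1813 FPKM in 6-6 MS in the authors' deposited table (-0.51). Among the AG peptides AGP12 (0.57), AGP20 (0.49) and AGP15 (0.43) rose.

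The remaining rises in 6-6 were those of FLA5 (log2 ratio 2.61), AGP3 (0.69), AGP25 (0.59), AT3G55820 (0.57) and AGP1 (0.45). The remaining falls were those of AGP7 (-1.04), AGP13 (-0.92), FLA2 (-0.92), FLA8 (-0.84), SOS5 (-0.65), AGP17 (-0.61), AGP19 (-0.59), AGP31 (-0.55), FLA12 (-0.46), FLA15 (-0.35) and FLA10 (-0.32). AGP31 carries a domain that binds other wall polymers, and SOS5 stood at 19.3 FPKM in 6-6 NaCl and 30.4 FPKM in 6-6 MS in the authors' deposited table. By class, 3 fasciclin-like genes rose and 8 fell of 19 tested, 3 AG peptides rose and 2 fell of 11, and 6 other AGPs rose and 7 fell of 18. For comparison, 13.7% of all tested genes rose in 6-6 and 10.4% fell. With the statistic taken as a normal deviate, 17 members were called and 10.1% of all genes. The calls of AGP31, AGP19, AGP17, FLA15, AT3G55820, FLA10, AGP20, FLA5, AGP15, AT5G26730, FLA12 and AGP1 in 6-6 were then lost.

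**Figure D2:**
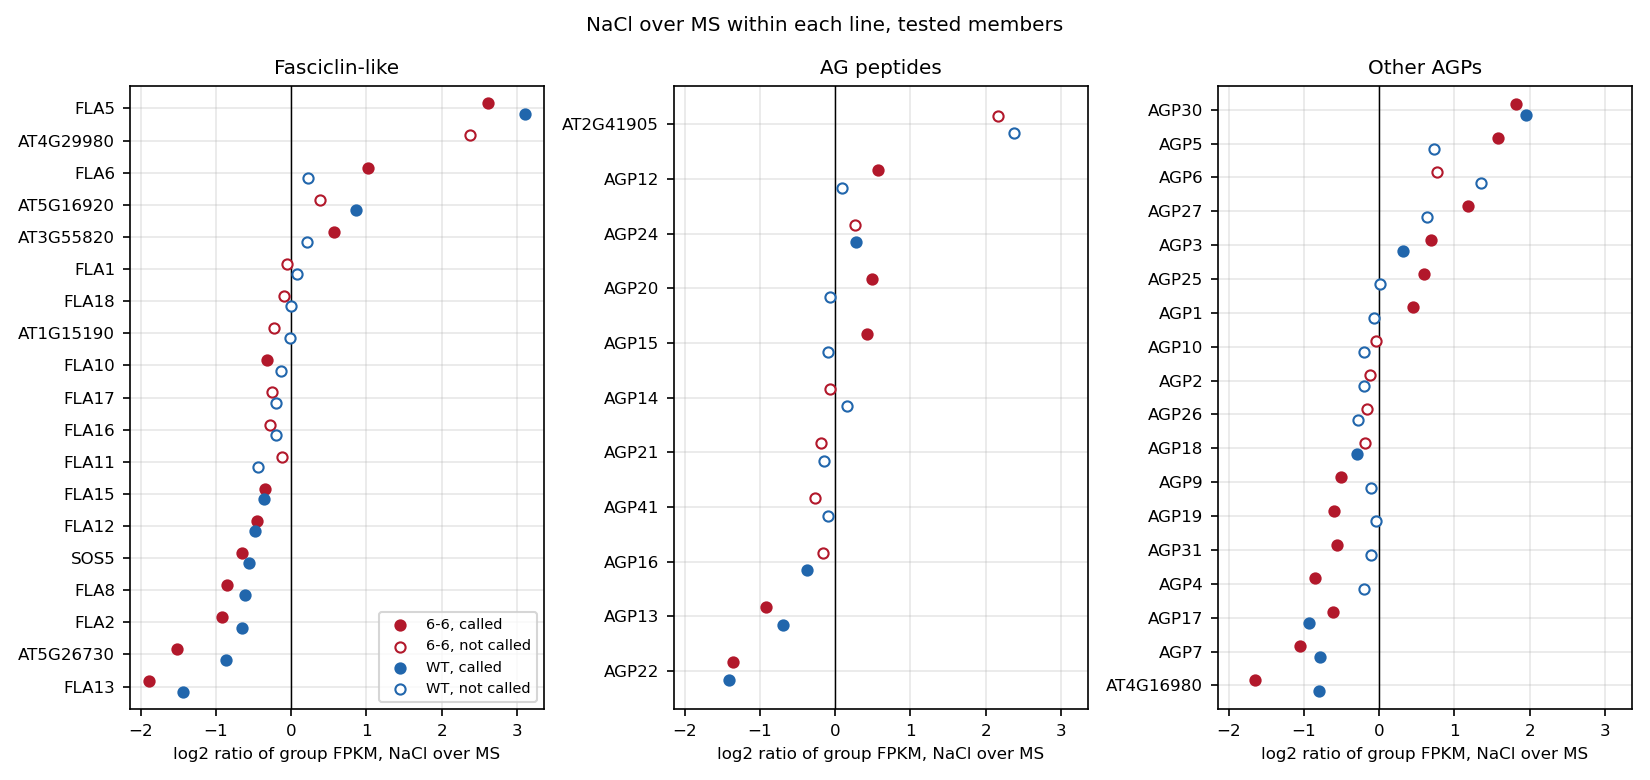
The log2 ratio of group FPKM for NaCl over MS in 6-6 (red) and WT (blue) for each tested gene, in 3 panels by class, with filled circles for genes called at a q-value below 0.05 in the authors' deposited tables and open circles for the rest. AGP30 and FLA5 lie far to the right in both lines, FLA13 and AGP22 far to the left, and AGP4, AGP9, AGP31 and AGP19 are filled in 6-6 and open in WT.

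Set side by side, the salt comparisons called 15 genes in both lines, 3 that rose (AGP30, FLA5 and AGP3) and 12 that fell, and no gene was called in opposite directions. These 15 are 51.7% of the 29 called in 6-6 and 78.9% of the 19 called in WT. Over all genes 2913 were called in both lines, which is 61.3% of those called in 6-6 and 67.5% of those called in WT, and 19 of them in opposite directions. FLA5 was not tested between lines on MS, where it had 0.173 FPKM in 6-6 MS and 0.234 FPKM in WT MS. It may have been tested for salt only through its higher NaCl values, so its rise in both lines carries little weight. In 6-6 alone 9 rose and 5 fell, and in WT alone 2 rose (AT5G16920 and AGP24) and 2 fell (AGP16 and AGP18). A call in 1 line and not in the other does not show that the lines differ, and the difference in salt response could not be tested without values per sample. The largest gaps in log2 ratio, 6-6 minus WT, were 0.85 for AGP5 and 0.80 for FLA6 on the upper side and -0.85 for AT4G16980, -0.66 for AT5G26730 and -0.64 for AGP4 on the lower side. For AGP24 the salt ratio was 0.26 in 6-6 and 0.27 in WT, although it was called in WT alone.

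The sum over the 26 fasciclin-like genes was smaller on NaCl in both lines, at 835 FPKM in 6-6 NaCl and 1286 FPKM in 6-6 MS, and at 888 FPKM in WT NaCl and 1244 FPKM in WT MS, from the authors' deposited tables. The AG peptides summed to 6185 FPKM in 6-6 NaCl and 6761.5 FPKM in 6-6 MS, and to 6967 FPKM in WT NaCl and 8084 FPKM in WT MS. The other AGPs summed to 5588 FPKM in 6-6 NaCl and 6531 FPKM in 6-6 MS, and to 5259 FPKM in WT NaCl and 5350.3 FPKM in WT MS. These sums have no error, and a few genes carry most of each.

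**Figure D3:**
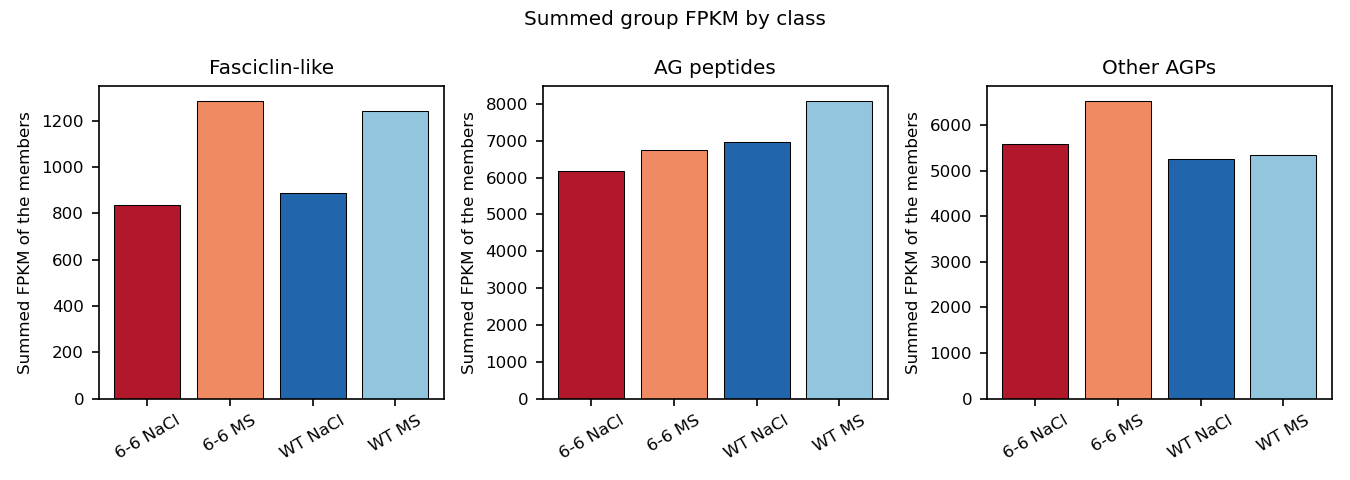
Summed FPKM of the 26 fasciclin-like genes, 13 AG peptides and 19 other AGPs in each of the 4 groups, from the authors' deposited tables; each bar is 1 sum with no error. The fasciclin-like sum is 835 in 6-6 NaCl and 888 in WT NaCl, below the 1286 in 6-6 MS and 1244 in WT MS.

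Without salt, few of these genes were called between 6-6 MS and WT MS. Of 45 tested genes 5 were called (11.1%), 3 higher and 2 lower, against 3.02% of all 19465 tested genes, where 1.13% were higher and 1.89% lower. Among members with a mean of at least 10 FPKM 5 of 36 were called, against 3.55% of all such genes. By gene length, 2 of 8 members were called up to 600 bases (5.05% of all genes), 2 of 23 from 600 to 1200 bases (6.22%) and 1 of 10 from 1200 to 2400 bases (3.88%). The 3 higher in 6-6 were other AGPs, of which AGP9 had 1791 FPKM in 6-6 MS and 1324 FPKM in WT MS in the authors' deposited table, a log2 ratio of 0.44 with a q-value of 0.0197. AGP4 had 1076 FPKM in 6-6 MS and 785 FPKM in WT MS (0.45), and the lysine-rich AGP19 had 16.4 FPKM in 6-6 MS and 10.5 FPKM in WT MS (0.65).

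The 2 lower in 6-6 were AG peptides. AGP15 had 622 FPKM in 6-6 MS and 854 FPKM in WT MS in the authors' deposited table, a log2 ratio of -0.46 with a q-value of 0.00396, and AGP12 had 435 FPKM in 6-6 MS and 576 FPKM in WT MS (-0.41). All 10 tested AG peptides had a ratio below 0, with a median log2 ratio of -0.23, where the median of all tested genes was -0.07 and 67.2% of them lay below 0. Of the 8 markers of secondary walls and xylem all 8 lay below 0 as well (median -0.21), and of the 32 tested pathway genes 27 did. By gene length, all tested genes of at most 600 bases had a median of -0.07, and those from 600 to 1200 bases one of -0.05. Of the 18 tested other AGPs 13 had a ratio above 0 (median 0.26), and 0 of 17 tested fasciclin-like genes were called by the authors' test in the Cuffdiff layout (median -0.02, 3 at an unadjusted p below 0.05). At a q-value below 0.01 AGP15 alone was called, against 1.39% of all genes. With the statistic taken as a normal deviate all 5 calls were lost, and 0.596% of all genes were called.

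The comparison of lines on MS and the salt comparison in 6-6 share the 6-6 MS samples, and their values for the same genes are therefore only set side by side. For AGP4 the log2 ratio was 0.45 for 6-6 MS over WT MS and -0.85 for 6-6 NaCl over 6-6 MS, and for AGP15 it was -0.46 and 0.43 in the same order. On NaCl the 5 were not called between lines. AGP4, for example, had 1089 FPKM in 6-6 MS in the authors' deposited tables, while the other 3 groups lay between 605 FPKM in 6-6 NaCl and 802 FPKM in WT MS. Genes of the organelle genomes moved with the same group, with a median log2 ratio of 1.33 for 6-6 MS over WT MS (43 of 91 tested were higher) and -1.67 for 6-6 NaCl over 6-6 MS (60 of 90 were lower). Their part in the results of the 6-6 MS group was not tested.

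On salt, 9 of 48 tested genes were called between 6-6 NaCl and WT NaCl (18.8%), 4 higher and 5 lower, against 6.71% of all 19772 tested genes, where 3.04% were higher and 3.67% lower. Among members with a mean of at least 10 FPKM 7 of 37 were called, against 7.18% of all such genes. By gene length, 3 of 9 members were called up to 600 bases (9.93% of all genes), 6 of 25 from 600 to 1200 bases (12.9%) and 0 of 10 from 1200 to 2400 bases (8.35%). AGP3 had 427 FPKM in 6-6 NaCl and 259 FPKM in WT NaCl in the authors' deposited table, a log2 ratio of 0.72 with a q-value of 0.00186. FLA6 had 8.80 FPKM in 6-6 NaCl and 4.08 FPKM in WT NaCl (1.11). AGP10 (0.37) and AGP25 (0.40) were also higher in 6-6.

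The AG peptide AGP13 was lower in 6-6, with 257 FPKM in 6-6 NaCl and 384 FPKM in WT NaCl in the authors' deposited table, a log2 ratio of -0.58 and a q-value of 0.00186. AGP14 had 1288 FPKM in 6-6 NaCl and 1663 FPKM in WT NaCl (-0.37), and AGP41 had 35.8 FPKM in 6-6 NaCl and 47.0 FPKM in WT NaCl (-0.39). AT4G16980 (-0.44) and FLA5 (-0.93), which had 1.09 FPKM in 6-6 NaCl and 2.08 FPKM in WT NaCl, were lower too. All 3 called AG peptides were thus lower in 6-6, and 3 of the 4 called other AGPs were higher. Over all 11 tested AG peptides, however, 5 had a ratio above 0 and 6 below it (median log2 ratio -0.10). Of the 18 tested other AGPs, 15 lay above 0 and 3 below (median 0.19), and the median of all tested genes was -0.05. No member was called between lines on both media. Over all genes 192 were, which is 14.5% of those called on NaCl and 32.7% of those called on MS, so a count of 0 among 9 and 5 members says little. At a q-value below 0.01, 5 members were called, against 3.74% of all genes. With the statistic taken as a normal deviate, 1.04% of all genes and, of the members, AGP3 alone were called, so the calls of FLA6, AGP10, AGP25, AGP13, AGP14, AGP41, AT4G16980 and FLA5 between lines were lost.

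**Figure D4:**
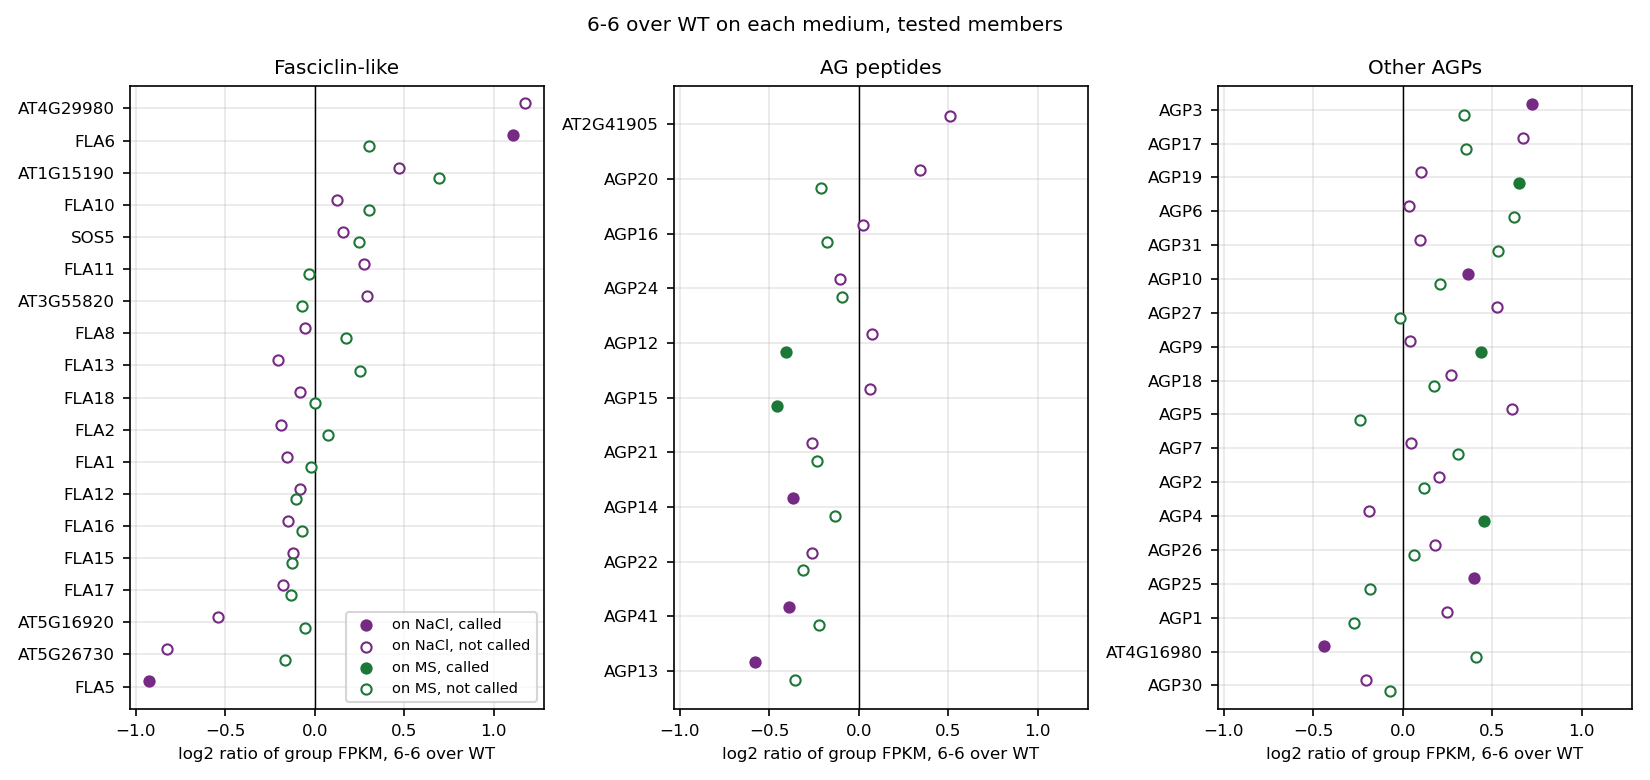
The log2 ratio of group FPKM for 6-6 over WT on NaCl (purple) and on MS (green) for each tested gene, in 3 panels by class, with filled circles for genes called at a q-value below 0.05 in the authors' deposited tables. All 10 AG peptides tested on MS lie left of 0, AGP3 and FLA6 are filled at 0.72 and 1.11 on NaCl, and no gene is filled on both media.

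Tested for salt in both lines, 14 genes were called in neither. Of these, AGP14 (-0.07 in 6-6 and 0.16 in WT), AGP2, AGP21 and AGP10 were abundant. FLA1, FLA11, FLA16, FLA17, FLA18, AGP41 and AGP26 were moderately so. The low AT2G41905 had 1.33 FPKM in 6-6 NaCl, 0.296 FPKM in 6-6 MS, 0.946 FPKM in WT NaCl and 0.182 FPKM in WT MS in the authors' deposited tables, and was not called. FLA1, known from lateral root growth and shoot regeneration in culture, had 45.7 FPKM in 6-6 NaCl, 47.4 FPKM in 6-6 MS, 51.5 FPKM in WT NaCl and 48.6 FPKM in WT MS in the authors' deposited tables. FLA11, a gene of secondary walls, had 91.0 FPKM in 6-6 NaCl, 99.4 FPKM in 6-6 MS, 75.8 FPKM in WT NaCl and 103 FPKM in WT MS, from a locus shared with another gene. Its relative FLA12 fell in both lines. Of the secondary wall and xylem markers, 0 of 8 (CESA4, CESA7, CESA8, XCP1, XCP2, VND7, IRX9 and COBL4) were called in any comparison by the authors' test. The shares over all tested genes were 24.1% for salt in 6-6, 21.8% in WT, 6.71% between lines on NaCl and 3.02% on MS. A count of 0 among 8 therefore says little. At an unadjusted p below 0.05, 3 of these 8 passed for salt in 6-6 and 0 in WT, and between lines 1 on NaCl and 2 on MS. The markers summed to 335 FPKM in 6-6 NaCl, 319 FPKM in 6-6 MS, 370.3 FPKM in WT NaCl and 369 FPKM in WT MS, none at 0.

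FLA9, left out by its spelling, fell on salt in both lines. In the authors' deposited tables it had 275 FPKM in 6-6 NaCl and 772 FPKM in 6-6 MS (log2 ratio -1.49), and 356 FPKM in WT NaCl and 719.7 FPKM in WT MS (-1.01). Between lines it had 281 FPKM in 6-6 NaCl and 361 FPKM in WT NaCl, a log2 ratio of -0.36 with a q-value of 0.00936. FLA7 was called in no comparison. Over the FLA family of 21 numbered genes, with both of these included, 2 rose and 8 fell of 17 tested for salt in 6-6, and 1 rose and 7 fell of 17 in WT. Of all tested genes 13.7% rose and 10.4% fell in 6-6, and 11.3% rose and 10.5% fell in WT. Between lines 0 of 16 were called on MS by the authors' test (3 at an unadjusted p below 0.05), and 1 was higher and 2 lower in 6-6 of 17 on NaCl. Of all tested genes 3.02% were called between lines on MS and 6.71% on NaCl, so 0 of 16 says little.

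Among genes for enzymes that build and trim the AGP glycan, the calls for salt were those of FUT4, GALT29A and RAY1. Prolyl 4-hydroxylases, which make the hydroxyproline that carries the glycans, were called in 0 of 9 tested genes in every comparison, with log2 ratios from -0.24 to 0.25 for salt in 6-6 and from -0.18 to 0.30 in WT. The shares of all tested genes called were 24.1% for salt in 6-6, 21.8% in WT, 6.71% between lines on NaCl and 3.02% on MS. A count of 0 among 9 therefore says little. At an unadjusted p below 0.05, 1 of the 9 passed for salt in 6-6 and 1 in WT, and between lines 2 on NaCl and 0 on MS. Of 18 tested glycosyltransferases, FUT4, a fucosyltransferase of AGPs, fell to 30.1 FPKM in 6-6 NaCl, against 42.4 FPKM in 6-6 MS, in the authors' deposited table (log2 ratio -0.49, q-value 0.000441). In WT it fell to 37.1 FPKM on NaCl, against 47.2 FPKM on MS (-0.35, q-value 0.00691). The galactosyltransferase gene GALT29A fell in WT (-0.31), and RAY1, for an arabinosyltransferase, rose in 6-6 (0.50). GALT2 and GALT5, which add the first galactose and act with SOS5, were among those not called. Between lines 0 of the 18 were called, with 2 at an unadjusted p below 0.05 on each medium. Beside the shares of 6.71% on NaCl and 3.02% on MS, 0 of 18 says little.

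FEI1 and FEI2 are receptor-like kinases that act in 1 pathway with SOS5 in root tip elongation. FEI2 had 18.8 FPKM in WT NaCl and 23.2 FPKM in WT MS in the authors' deposited table, a log2 ratio of -0.30 with a q-value of 0.0362, and FEI1 was not called in any comparison. The 3 glycan hydrolase genes GH43A, GH43B and GUS2 were called in none. Over these 4 lists, leaving out the FLA family, 2 of 32 tested genes were called for salt in 6-6 and 3 of 32 in WT, and 0 of 32 between lines on either medium. Over all tested genes the shares were 24.1% in 6-6 and 21.8% in WT for salt, and 6.71% on NaCl and 3.02% on MS between lines. At an unadjusted p below 0.05, 8 of the 32 passed for salt in 6-6 and 8 in WT, and between lines 5 on NaCl and 2 on MS. These counts have no background, because the shares above are for q-values and do not apply to them. With the statistic taken as a normal deviate, 0 of the 32 were called for salt in either line.

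Some markers of root hairs, of green tissue, and of meristem and cap were called for salt in both lines. Of all tested genes 24.1% were called for salt in 6-6 and 21.8% in WT, and between lines 6.71% on NaCl and 3.02% on MS. Of 8 root hair markers 4 rose and none fell in each line, and their sum was 848 FPKM in 6-6 NaCl, 602 FPKM in 6-6 MS, 694 FPKM in WT NaCl and 525 FPKM in WT MS in the authors' deposited tables. Between lines 3 root hair markers were higher and 1 lower in 6-6 on NaCl, and 2 were higher on MS. Of 8 green tissue markers 7 rose in each line, with sums of 220.3 FPKM in 6-6 NaCl, 104 FPKM in 6-6 MS, 299.8 FPKM in WT NaCl and 131 FPKM in WT MS. Between lines 1 of 8 green tissue markers was lower in 6-6 on NaCl, and 3 of 7 tested were lower on MS. Of 8 meristem and cap markers 1 rose (WOX5) and 2 fell in each line, and between lines 1 was higher and 1 lower in 6-6 on NaCl, with 0 called on MS. None of these markers was at 0, and their part in the AGP results was not tested.

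The regions before AGP30 and FLA13 are shown because these genes moved furthest up and down for salt among members above 10 FPKM, and they cover 250 bases up to the RefSeq TAIR10.1 start, 5′ to 3′ on the gene's strand. Capitals mark a match on either strand to ACGTG, the core of the ABA-response element, or TTGAC, the core of the W-box bound by WRKY factors.
AGP30 (chr2:14295354-14295603, minus strand): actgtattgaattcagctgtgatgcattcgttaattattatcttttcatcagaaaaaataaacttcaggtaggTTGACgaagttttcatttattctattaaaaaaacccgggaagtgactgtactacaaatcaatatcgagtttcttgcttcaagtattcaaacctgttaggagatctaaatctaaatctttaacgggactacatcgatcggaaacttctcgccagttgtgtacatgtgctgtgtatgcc
FLA13 (chr5:17760615-17760864, plus strand): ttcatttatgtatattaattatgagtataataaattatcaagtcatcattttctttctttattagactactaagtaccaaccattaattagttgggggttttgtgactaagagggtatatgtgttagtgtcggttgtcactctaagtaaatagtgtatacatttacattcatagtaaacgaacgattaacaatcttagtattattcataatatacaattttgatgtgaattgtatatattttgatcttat

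AGP30 has 1 TTGAC match, 177 bases before the start, and FLA13 holds neither motif in this window. ACGTG occurs in 6 of the 58 windows (10.3%), against 22.9% of 27443 windows of all genes. TTGAC occurs in 20 of the 58 (34.5%), against 44.9% of all. A match describes the letters in these windows only.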

How the data were processed

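RNA-seq of 12 samples in 4 groups was used as deposited. The submitters' processing notes name HISAT2, HTSeq, edgeR and the build TAIR10, with no versions or roles. Per the file headers, each of the 4 deposited tables has the gene-level layout of Cuffdiff, with 1 FPKM value per group that the authors made by combining samples. The authors also deposited a signed test statistic (a score) and a p-value and q-value per gene. The q-values equalled a Benjamini-Hochberg adjustment within each table to 5.29e-07, their smallest deposited p-value is 5e-05, and tables were treated as scaled separately.

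From these values log2 ratios of the 2 group FPKM were computed with Python 3.11.15, pandas 2.3.3 and numpy 2.4.6, and genes were called at q below 0.05. Levels across 4 groups were taken from the 2 salt tables, and the line tables gave the same groups median ratios of 0.979 to 1.02 to these values. No pseudocount was used. An adjustment of p-values was tested on simulated data. A repeated header line in 1 table was dropped. Group assignment followed the sample titles. Coordinates of the printed sequences are those of RefSeq TAIR10.1, matched by locus tag (58 of 58), read with Biopython 1.88.

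The members and lists were chosen with earlier results of these data known. The naming rule took every called member, or the 7 highest and 7 lowest where more than 14 were called, the 8 highest by level, SOS5, and called pathway genes. The other called members, FLA7, FLA9 and the members named as uncalled were added after their values were seen.

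Alternatives were q below 0.01, the statistic as a normal deviate, a filter of 1 FPKM, log2(FPKM + 1), centring on the median gene, and members without a shared locus. A background of genes of at least 10 FPKM or of like gene length, and the addition of FLA7 and FLA9 were chosen after seeing the data. Count models, a replicate block and samples left out need values per sample and were not run. Depth is unknown.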

Additional observations from a re-analysis of the deposited data

How the results depend on the processing

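No paired analysis was possible because the tables hold 1 value per group, and for the same reason no fit with a replicate block and none without single replicates was run. The group values have no error, and small differences at low FPKM carry the most doubt. With q below 0.01 the members called for salt stayed within 1.5 times, while those called between lines came to 5 on NaCl and 1 on MS. With the authors' statistic taken as a normal deviate there were 17 calls for salt in 6-6 and 9 in WT, and 1 between lines on NaCl and 0 on MS. For the FLA family there were then 6 calls in 6-6 and 5 in WT for salt and 0 between lines on NaCl. For the pathway lists without the FLA family, q below 0.01 left 1 call for salt in 6-6 and 1 in WT, and the statistic left 0 in each. The filter of 1 FPKM, centring, members without a shared locus, and the addition of FLA7 and FLA9 (30 called for salt in 6-6, 20 in WT, and 10 on NaCl and 5 on MS between lines) kept the counts within 1.5 times. Of 62 calls of single members, none changed direction, 43 held with q below 0.01 and 27 with the statistic. The cause of these differences was not tested.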
